A study of Mus musculus with 4 samples.

Results

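BAFF and APRIL are TNF family ligands that keep B cells and plasma cells alive. BAFF binds the receptors BAFF-R and TACI and, weakly, BCMA, whereas APRIL binds TACI and BCMA. Myeloid cells are a known source of both ligands, BAFF-R is the survival receptor of resting B cells, BCMA is characteristic of plasma cells, and TACI is found on activated B cells and plasma cells. The 5 genes described here are the ligands Tnfsf13b (BAFF) and Tnfsf13 (APRIL) and the receptors Tnfrsf17 (BCMA), Tnfrsf13c (BAFF-R) and Tnfrsf13b (TACI). They were chosen by name, out of 33696 features of the count matrices, under the identifiers ENSMUSG00000031497, ENSMUSG00000089669, ENSMUSG00000022496, ENSMUSG00000068105 and ENSMUSG00000010142 in that order.

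Transcripts were counted in single live CD45+ leukocytes sorted from subcutaneous tumors of KPC cells, a mouse pancreatic cancer line, grown in male C57BL/6NHsd mice of 8 to 10 weeks. The 4 groups were untreated mice, mice given the STING agonist ADU-S100 once into the tumor (2 µg), mice given the agonist antibody 4H8 against the lymphotoxin-β receptor by injection (anti-LTβR, 4 doses of 100 µg), and mice given both (combination). In each group 10 tumors resected on day 14 were pooled. The study describes independent experiments, and 1 library of each group was read here, so no group had a replicate and differences between mice cannot be told apart from differences between treatments. No test between groups was possible, and all intervals below are exact 95% intervals that cover counting error only.

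Sets of 4 values are in the order untreated, ADU-S100, anti-LTβR, combination. After quality limits 7358, 13224, 13023 and 14385 leukocytes were kept, with median unique molecular identifier (UMI) counts of 4580, 3111, 3694 and 2178. Depth per cell was thus lowest in the combination library. Pairs of libraries shared 34 to 83 cell barcodes. Cells were grouped into classes by marker genes that did not include the 5 members, and a level is the number of UMIs per 1000000 non-immunoglobulin UMIs (CPM), both summed over the cells of a class. Clusters with fewer than 3 markers, or whose leading genes pointed to another class, stayed unnamed and held 19.0, 19.96, 16.4 and 19.0% of leukocytes. Macrophage-like cells (1633, 1308, 1964 and 2534) held all 8 of their markers above 10 CPM in every library, and plasma-like cells (106, 66, 397 and 826) all 8 of theirs. The same markers had named the clusters, so this is no separate check of identity. Plasma-like and monocyte-like cells also held all 8 macrophage markers above 10 CPM in every library. Their sums were 602 to 1827 and 3529 to 5377 CPM, against 19080 to 24206 CPM in macrophage-like cells. B-like cells numbered 7, 8, 143 and 212, too few in the first 2 libraries for a level.

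Tnfsf13b was above all a macrophage transcript. In macrophage-like cells its level was 73.2 CPM in untreated tumors (68.97 to 77.6, 1132 UMIs), 76.7 CPM with ADU-S100 (72.0 to 81.6), 64.7 CPM with anti-LTβR (60.5 to 69.004) and 56.4 CPM with the combination (52.4 to 60.7). The interval of the combination lay below those of untreated and ADU-S100 and reached into that of anti-LTβR. Macrophage-like cells ranked first of the named classes in all 4 libraries, with intervals that did not reach the next class. That next class was neutrophil-like in the first 3 libraries (24.6, 16.7 and 21.6 CPM) and cDC2-like in the combination (12.1 CPM), and ranks 2 to 4 overlapped their neighbors in every library.

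Monocyte-like cells, the likely precursors of tumor macrophages, held 15.4, 15.2, 14.98 and 10.54 CPM of Tnfsf13b, far below macrophage-like cells of the same library. NK-like cells, last or next to last of the ranked classes, held 0, 1.33, 1.93 and 0.973 CPM. T-like cells held 14.7, 7.29, 7.69 and 9.47 CPM. A Tnfsf13b UMI was seen in 38.5, 38.3, 27.6 and 20.7% of macrophage-like cells at median depths of 9258, 9606.5, 6357 and 4356 UMIs, against 0, 0.560, 0.627 and 0.173% of NK-like cells at 3244, 3340, 2903.5 and 1449 UMIs. Thinned to 1000 UMIs per cell, with 1592, 1267, 1892 and 2390 macrophage-like cells deep enough, the share was 7.66, 7.42, 5.07 and 5.27%, against 0 to 0.296% of NK-like cells.

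**Figure D1:**
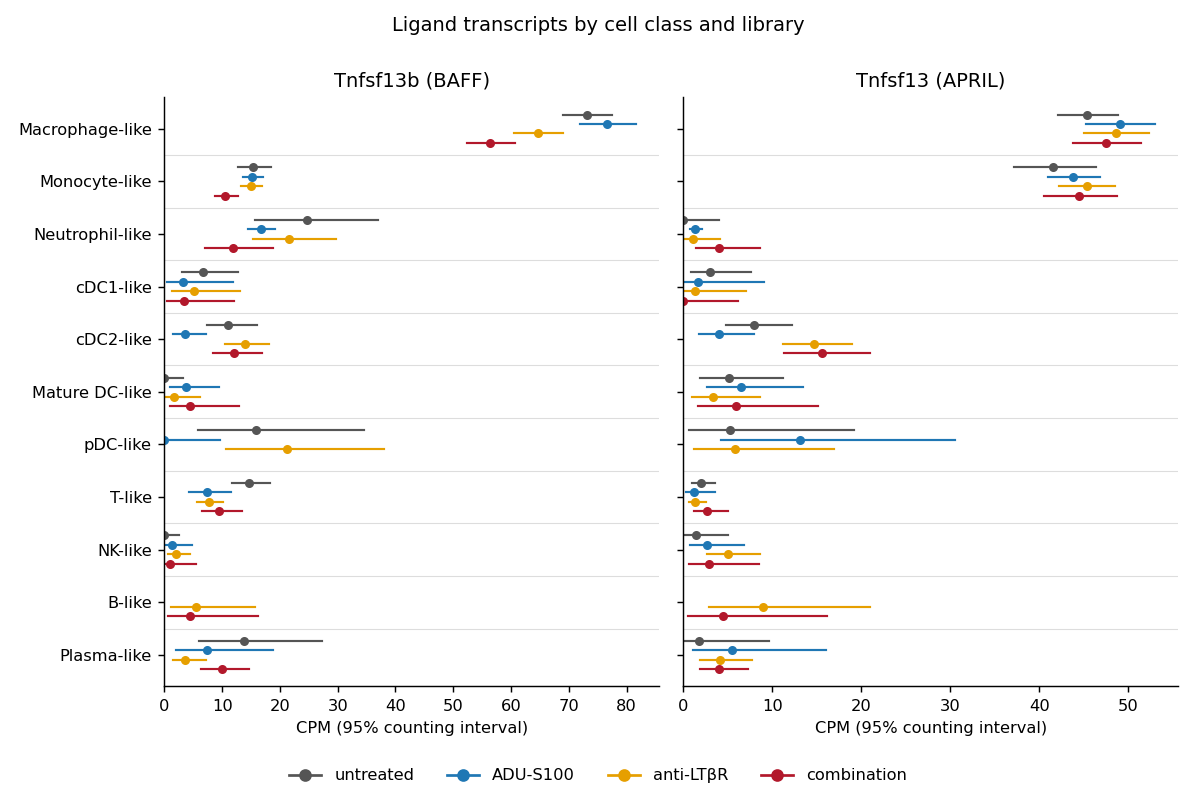
Level of Tnfsf13b (left) and Tnfsf13 (right) in CPM on the x axis for each cell class on the y axis. Points are the 4 libraries, lines exact Poisson 95% intervals for counting error, and classes with fewer than 50 cells in a library are left out. Tnfsf13b stands highest in macrophage-like cells (56.4 to 76.7 CPM), and Tnfsf13 is at a like level in macrophage-like and monocyte-like cells.

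The 300-base window around the Tnfsf13b start site at chr8:10006383-10006682 (plus strand) is shown because type I interferon, which STING agonists induce, acts through the interferon-stimulated response element, whose core was searched as GAAA, any 2 bases and GAAA again. Sequences are from RefSeq on GRCm38.p6, which is the assembly called mm10, with 250 bases before and 50 after the start site, and capitals mark motif matches.
Tnfsf13b: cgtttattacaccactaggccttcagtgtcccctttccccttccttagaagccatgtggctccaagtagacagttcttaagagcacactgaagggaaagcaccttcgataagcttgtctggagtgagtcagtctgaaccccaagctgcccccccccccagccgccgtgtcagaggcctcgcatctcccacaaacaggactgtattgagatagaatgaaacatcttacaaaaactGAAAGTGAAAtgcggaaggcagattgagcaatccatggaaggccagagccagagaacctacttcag
The window holds 1 match to this core, 16 to 7 bases before the start site. On both strands together this motif was found in 3.44% of 32851 windows of the same length in the table. A match is a description, not a shown binding site. The other 4 motifs searched on both strands were TTCNNNGAA (in 8.30% of windows), a κB motif of GGG, any 2 bases and TTTCC (1.63%), ATGCAAAT (1.74%) and GAGGAA (28.3%), and none of them was found in this window. A window at an earlier Tnfsf13b start site and those of Tnfsf13 and Tnfrsf13b held none of the 5.

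Within macrophage-like cells Tnfsf13b was lowest in the combination library. Against untreated, the log2 ratio of levels was 0.07 with ADU-S100 (-0.06 to 0.19), -0.18 with anti-LTβR (-0.31 to -0.05) and -0.37 with the combination (-0.51 to -0.24). Tnfsf13b was also lower in the combination than with ADU-S100 by a log2 ratio of -0.44 (-0.58 to -0.30) and lower than anti-LTβR by -0.20 (-0.34 to -0.05). None of these reached 2-fold, and 0 of the 3 members with at least 50 UMIs in this class were past 2-fold in any of the 5 comparisons. Among all genes tested in macrophage-like cells, the share lower by at least 2-fold was 1.22% with ADU-S100, 0.334% with anti-LTβR and 0.808% with the combination, all against untreated, and 0.889 and 1.19% for the combination against each agonist alone. The matching shares that were higher were 0.858, 1.43, 1.47, 1.97 and 0.445%. The median log2 ratio over all genes of this class lay between -0.09 and 0.03 in the 5 comparisons.

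The order of the Tnfsf13b levels matched the order of sequencing depth per macrophage-like cell, which was highest with ADU-S100 and lowest with the combination. When every cell was weighted as if thinned to 1000 UMIs, the ratio of the combination to untreated was -0.38, close to the unthinned value, but that to anti-LTβR was -0.032 and that of anti-LTβR to untreated -0.35. When cells were assigned one by one from their own marker UMIs in place of clusters, the levels were 66.3, 53.0, 54.0 and 49.8 CPM, so that ADU-S100 was then lower than untreated (log2 ratio -0.32) and the combination was close to ADU-S100 (-0.092). What held under every alternative was the lower level of the combination than of untreated.

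Of the 3 macrophage-like clusters, cluster 15 was far lower in Tnfsf13b than the others. Cluster 1, the largest, held 78.2, 82.3, 76.4 and 58.8 CPM. Cluster 14, of dividing macrophages, held 72.9, 64.9, 72.1 and 55.7 CPM. Cluster 15, which was marked by Cd163, Folr2 and Cbr2, held only 18.4, 9.49, 14.9 and 14.7 CPM, below both other clusters in every library with no overlap of intervals.

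Cells of cluster 15 were 534 of the 1964 macrophage-like cells with anti-LTβR, against 142 of 1633, 114 of 1308 and 174 of 2534 in the other libraries. Within cluster 1 alone the ratio of anti-LTβR to untreated was -0.032 (-0.17 to 0.11), so the lower macrophage level with anti-LTβR was not seen there. The ratio of the combination to untreated was -0.41 (-0.56 to -0.26) within cluster 1, and that of the combination to anti-LTβR was -0.38 (-0.54 to -0.22).

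**Figure D2:**
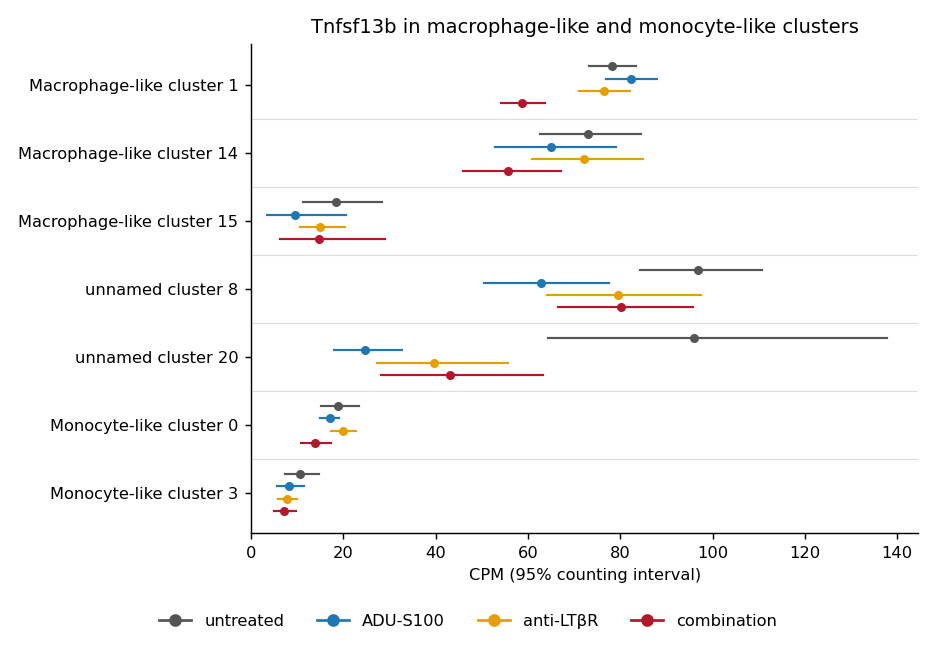
Level of Tnfsf13b in CPM on the x axis in clusters of macrophage-like, monocyte-like and unnamed cells on the y axis. Points are libraries and lines exact Poisson 95% intervals. In macrophage-like cluster 1 the combination (58.8 CPM) lies below the other 3 libraries, and cluster 15 is low in all 4.

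An unnamed cluster with raised Adgre1 and Mrc1, macrophage genes, was as rich in Tnfsf13b as the macrophage-like cells. This cluster 8 held 96.8, 62.9, 79.5 and 80.1 CPM in 544, 347, 339 and 576 cells. With ADU-S100 it was lower than in untreated by a log2 ratio of -0.62 (-0.997 to -0.26). Cluster 8 supplied 12.1, 4.70, 5.63 and 10.0% of all Tnfsf13b UMIs, beside 64.3, 53.0, 55.9 and 59.9% from macrophage-like cells. Monocyte-like cells supplied 6.81, 16.2, 16.2 and 9.36%. Neutrophil-like cells supplied 1.31, 10.8, 2.33 and 1.51%, and their number was 494, 5288, 972 and 1290.

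Over all leukocytes the Tnfsf13b level was 40.8, 28.3, 27.4 and 27.9 CPM, lower in every treated library. Against untreated, these differ by log2 ratios of -0.53, -0.58 and -0.55, while the median of all genes moved by -0.38 with ADU-S100, -0.04 with anti-LTβR and -0.11 with the combination. By arithmetic, if each class had kept its untreated share of UMIs and taken only its own new level, the ratio would be -0.14 with ADU-S100, -0.22 with anti-LTβR and -0.38 with the combination. If each class had kept its untreated level and taken only its new share, it would be -0.27, -0.35 and -0.14. The shares of the classes thus carried more of the lower total with either agonist alone, and the levels within classes more of it with the combination.

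Tnfsf13b in T-like cells was 14.7, 7.29, 7.69 and 9.47 CPM, and the ratio to untreated was -1.01 with ADU-S100 (-1.84 to -0.26, 18 against 82 UMIs), past 2-fold lower as were 2.66% of genes tested in that class. T-like cells also held summed macrophage markers of 492, 179, 315 and 607 CPM. The part of free or attached macrophage RNA in the T-like level was not tested.

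Tnfsf13 was at like levels in macrophage-like and monocyte-like cells taken as whole classes and differed little between treatments. Clusters within them differed. Monocyte-like cluster 3 held 49.6 to 56.4 CPM and cluster 0 held 34.9 to 41.5 CPM. Macrophage-like cluster 14 held 23.6 to 38.8 CPM, below clusters 1 (47.4 to 52.7 CPM) and 15 (47.4 to 65.3 CPM). Of the unnamed clusters, 6 and 11 were highest, with 47.3 to 59.2 and 45.2 to 62.4 CPM. Its level in macrophage-like cells was 45.4, 49.0, 48.6 and 47.5 CPM, from 603 to 702 UMIs per library. In monocyte-like cells it was 41.6, 43.8, 45.3 and 44.5 CPM. The 2 classes overlapped in every library and ranked first and second of the named classes, and the third was far below (7.89, 13.1, 14.7 and 15.6 CPM). In T-like cells the level was 1.22 to 2.66 CPM.

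In macrophage-like cells the log2 ratio of Tnfsf13 to untreated was 0.11 with ADU-S100 (-0.04 to 0.27), 0.10 with anti-LTβR (-0.06 to 0.25) and 0.07 with the combination (-0.09 to 0.23). All these intervals include 0, and their upper ends lie well under 2-fold. Over all leukocytes Tnfsf13 was 28.3, 30.3, 31.6 and 31.2 CPM. So Tnfsf13b and Tnfsf13, although both came from macrophages, did not follow each other between the libraries.

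The Tnfsf13 counts carry an uncertainty of annotation. On GRCm38.p6, Tnfsf13 (chr11:69682577-69685554) lies inside the span of Tnfsfm13, a read-through of Tnfsf12 and Tnfsf13 (chr11:69682577-69696098), and is overlapped by the noncoding Tnfsf13os (chr11:69682032-69691141). Tnfsf12, a neighboring TNF family ligand known as TWEAK, was at 44.9, 50.5, 44.0 and 42.7 CPM in macrophage-like cells, and Tnfsf13os at 6.01, 8.11, 10.1 and 8.99 CPM. Tnfsfm13 is not a feature of the matrices, so reads of the 3 genes may have been divided between them.

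Conventional dendritic cells of type 2 (cDC2-like) were a minor source of Tnfsf13, with 7.89, 4.01, 14.7 and 15.6 CPM (20, 8, 59 and 44 UMIs). Both libraries with the antibody were high, and the interval of ADU-S100 did not reach theirs. The combination was above ADU-S100 by a log2 ratio of 1.96 (0.86 to 3.26), past 2-fold, as were 4.73% of genes tested. Summed macrophage markers in cDC2-like cells were 2511, 681, 2688 and 3368 CPM, also lowest with ADU-S100 and highest with the combination, and their part in the Tnfsf13 levels was not tested. Of the 2 cDC2-like clusters, cluster 10 held 2.32, 2.20, 8.36 and 11.48 CPM and cluster 22 held 39.6, 22.4, 28.7 and 23.4 CPM. Cluster 22 had 45 and 19 cells in the first 2 libraries and 210 and 262 in those with the antibody.

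Both ligands were found together in some macrophages. Of 7439 macrophage-like cells, 2197 held a Tnfsf13b UMI, 1920 a Tnfsf13 UMI and 739 both. Of 10617 monocyte-like cells, 584 held Tnfsf13b, 1931 held Tnfsf13 and 148 both. At this depth a cell without a UMI cannot be called negative.

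**Figure D3:**
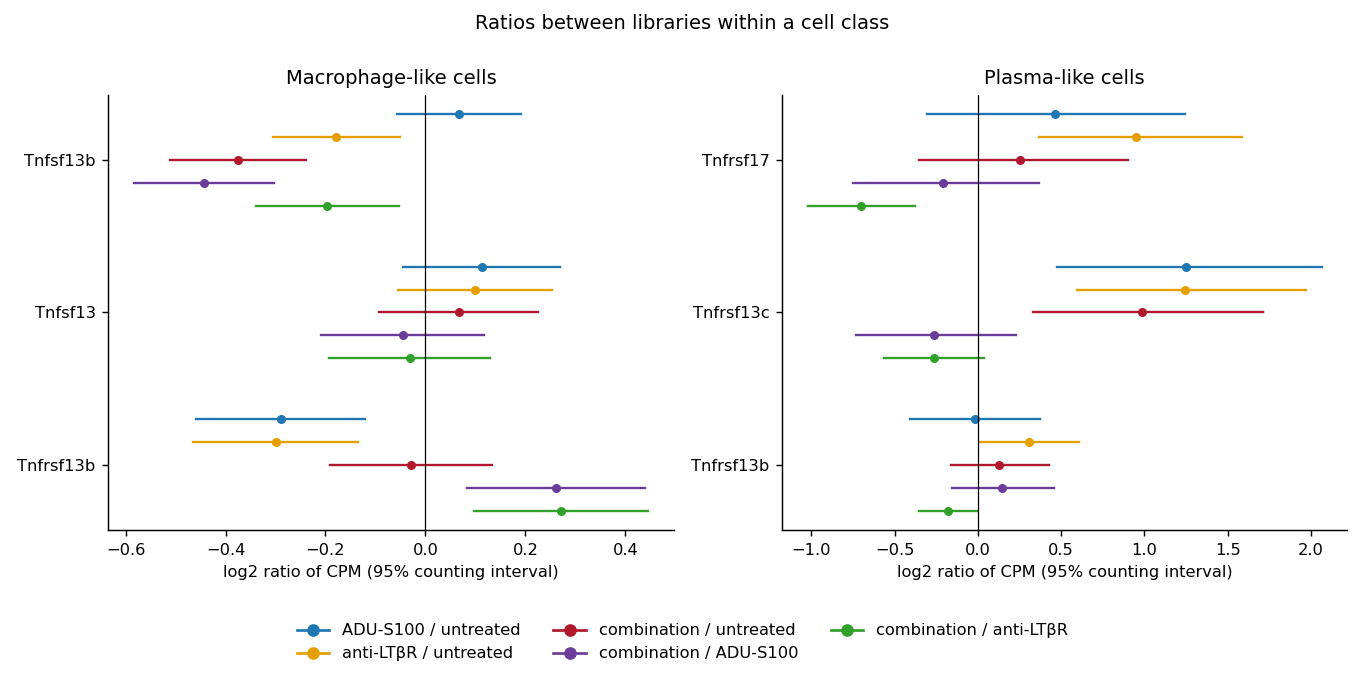
Log2 ratios of levels between libraries on the x axis for the ligands and Tnfrsf13b in macrophage-like cells (left) and for the receptors in plasma-like cells (right). Points are ratios, colors the 5 comparisons and lines exact 95% counting intervals. Tnfsf13b is lowest in the comparison of the combination with ADU-S100 (-0.44), Tnfsf13 lies near 0, and Tnfrsf13c in plasma-like cells is high in the 3 comparisons with untreated (0.98 to 1.25).

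Tnfrsf17, the receptor that sustains plasma cells, was found almost only in plasma-like cells, which held 93.1, 100, 95.2 and 95.2% of its UMIs. Its level there was 46.6 CPM in untreated tumors (30.7 to 67.8, 27 UMIs), 64.1 CPM with ADU-S100 (44.6 to 89.1, 35 UMIs), 90.0 CPM with anti-LTβR (78.0 to 103, 199 UMIs) and 55.4 CPM with the combination (46.6 to 65.4, 140 UMIs). Anti-LTβR was the high library, with an interval above those of untreated and the combination. Summed plasma markers of plasma-like cells were 30304, 34072, 35596 and 27984 CPM, also highest with anti-LTβR. Their summed macrophage markers were 1827, 1597, 602 and 1664 CPM, lowest with anti-LTβR. The part of these in the Tnfrsf17 levels was not tested. In B-like cells 0 UMIs were found with anti-LTβR, which allows up to 5.39 CPM at a limit of 3 UMIs, and 1 with the combination (2.24 CPM).

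A Tnfrsf17 UMI was seen in 12.3, 19.7, 21.2 and 11.02% of plasma-like cells, at median depths of 3355.5, 15330, 9041 and 3108.5 UMIs, and in none of 405, 357, 798 and 577 NK-like cells at the depths above, where a count of 0 allows up to 2.06, 1.996, 1.16 and 2.92 CPM at the same limit. The share was higher in the 2 libraries with deeper plasma-like cells. A single cell held 33.3% of the Tnfrsf17 UMIs of plasma-like cells in the untreated library and 22.9% in that with ADU-S100.

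Against untreated, the log2 ratio of Tnfrsf17 in plasma-like cells was 0.46 with ADU-S100 (-0.31 to 1.24), 0.95 with anti-LTβR (0.37 to 1.59) and 0.25 with the combination (-0.35 to 0.90). Without the top cell of each library that of anti-LTβR was 1.43 (0.73 to 2.22) and that of the combination 0.75 (0.04 to 1.55). Thinned to 1000 UMIs per cell the ratio of ADU-S100 turned to -0.46. The combination was lower than anti-LTβR by a log2 ratio of -0.70 (-1.02 to -0.38), which was -0.69 on thinning. None reached 2-fold over the whole class. Within the largest cluster the ratio of anti-LTβR to untreated was 0.64 (0.03 to 1.298). The 2 main plasma-like clusters held very different amounts. Cluster 17 (43, 36, 254 and 500 cells) had 69.6, 74.4, 108 and 66.7 CPM, and the shallower cluster 23 (58, 24, 132 and 314 cells) had 6.40, 0, 7.14 and 18.2 CPM, of 1, 0, 2 and 9 UMIs.

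The Tnfrsf17 and Tnfrsf13c windows are shown as a pair, since these 2 receptors of plasma-like cells differed by antibody class as given next. The Tnfrsf17 window is chr16:11313559-11313858 (plus strand), from a start site inside the annotated gene, and the Tnfrsf13c window is chr15:82224331-82224630 (minus strand).
Tnfrsf17: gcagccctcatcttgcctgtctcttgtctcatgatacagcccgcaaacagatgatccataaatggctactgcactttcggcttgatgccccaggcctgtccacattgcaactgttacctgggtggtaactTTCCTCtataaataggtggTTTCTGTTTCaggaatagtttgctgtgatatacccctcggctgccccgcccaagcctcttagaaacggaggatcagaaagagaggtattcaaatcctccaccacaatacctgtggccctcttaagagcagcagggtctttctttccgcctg
Tnfrsf13c: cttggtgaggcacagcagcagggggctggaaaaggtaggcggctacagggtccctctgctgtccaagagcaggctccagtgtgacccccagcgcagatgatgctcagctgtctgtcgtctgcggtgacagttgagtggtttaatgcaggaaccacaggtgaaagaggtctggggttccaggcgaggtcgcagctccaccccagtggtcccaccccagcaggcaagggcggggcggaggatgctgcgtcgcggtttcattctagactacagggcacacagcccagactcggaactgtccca
The Tnfrsf17 window holds a match to the interferon core on the opposite strand, 101 to 92 bases before the start site, and a match to GAGGAA, the core of sites for the hematopoietic factor PU.1, also on the opposite strand, 120 to 115 bases before it. In the Tnfrsf13c window none of the 5 motifs was found.

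The level of Tnfrsf17 depended on the antibody that a plasma-like cell made. Each cell was given the heavy-chain class with most constant-region UMIs, if it had at least 3, and 271, 839 and 101 cells were of IgM, IgG and IgA. Over all libraries Tnfrsf17 was at 169 CPM in IgM cells (146 to 195), 26.9 CPM in IgG cells (22.1 to 32.5) and 192 CPM in IgA cells (155 to 235).

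By library, Tnfrsf17 in IgM cells was 76.4, 232, 233 and 129 CPM, and in IgG cells 12.2, 25.2, 42.7 and 15.7 CPM. IgM cells were higher than IgG cells in 4 of 4 libraries, with log2 ratios of 2.64 (0.52 to 4.76), 3.20 (2.05 to 4.48), 2.45 (1.97 to 2.93) and 3.03 (2.37 to 3.73). The first 2 rest on 9 IgM cells each, and without the top cell of each class the untreated interval reached 0 (-0.22 to 5.12). Within cluster 17 alone, over all libraries, the ratio was 2.60 (2.25 to 2.97).

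IgA cells held 251.4, 17.4, 231 and 186 CPM of Tnfrsf17 in 8, 6, 30 and 57 cells, low in the 6 cells with ADU-S100, where a single UMI was found. The untreated value rests on 16 UMIs, of which 1 cell held 9. Within IgM cells the combination was lower than anti-LTβR by a log2 ratio of -0.86 (-1.32 to -0.40) and within IgG cells by -1.44 (-2.15 to -0.77), while within IgA cells the ratio was -0.32 (-1.01 to 0.36). IgM cells made up 8.49, 13.6, 18.1 and 21.9% of plasma-like cells and IgG cells 62.3, 60.6, 59.9 and 59.9%.

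**Figure D4:**
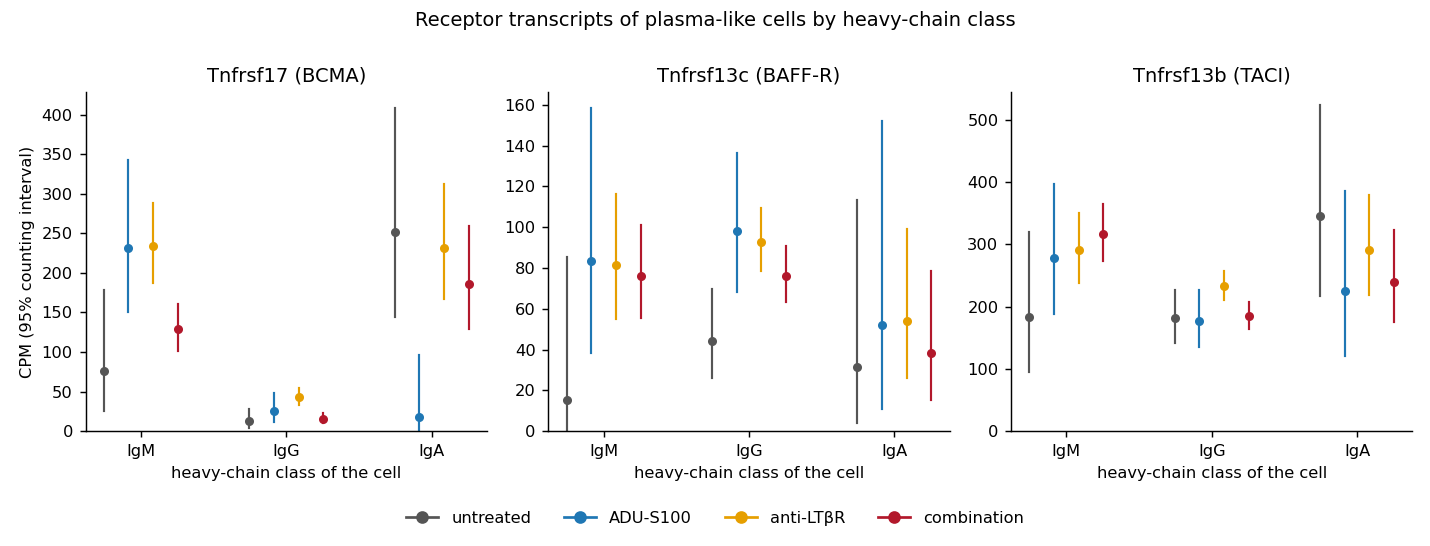
Level of the 3 receptors in CPM on the y axis in plasma-like cells of IgM, IgG and IgA on the x axis. Points are libraries and lines exact Poisson 95% intervals. Tnfrsf17 is low in IgG cells of all 4 libraries (12.2 to 42.7 CPM), where Tnfrsf13c is at 81.6 CPM and Tnfrsf13b at 203 CPM over all libraries.

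Tnfrsf13c, the receptor for BAFF alone, did not show this pattern. Over all libraries it was at 74.9 CPM in IgM cells (59.9 to 92.5), 81.6 CPM in IgG cells (73.0 to 90.9) and 44.9 CPM in IgA cells (28.1 to 67.9). The log2 ratio of IgM to IgG cells was -0.12 (-0.48 to 0.22), and that of IgA to IgG cells was -0.86 (-1.56 to -0.24). By library the latter was -0.49, -0.91, -0.79 and -0.997, from 2 to 10 UMIs in IgA cells, and each of these intervals included 0.

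Tnfrsf13c was lowest in the plasma-like cells of untreated tumors. Its level was 36.2 CPM there (22.4 to 55.4, 21 UMIs), 86.1 CPM with ADU-S100 (63.2 to 114, 47 UMIs), 86.0 CPM with anti-LTβR (74.2 to 99.1, 190 UMIs) and 71.7 CPM with the combination (61.6 to 82.9, 181 UMIs). The untreated interval lay below the other 3, which overlapped each other. Thinned to 1000 UMIs per cell, the levels were 16.5, 44.8, 66.5 and 58.5 CPM, and the combination was then also past 2-fold above untreated (log2 ratio 1.83, with 1.44 for ADU-S100 and 2.01 for anti-LTβR). The log2 ratio to untreated was 1.25 with ADU-S100 (0.48 to 2.06), 1.25 with anti-LTβR (0.59 to 1.97) and 0.98 with the combination (0.33 to 1.71). Of the 3 receptors, Tnfrsf13c was past 2-fold with ADU-S100 and with anti-LTβR and no receptor was with the combination. The share of all genes tested in plasma-like cells that were higher by 2-fold was 2.65, 2.31 and 2.92% in these comparisons, and 8.04 and 1.67% for the combination against ADU-S100 and against anti-LTβR. The shares that were lower were 5.1, 2.1, 1.23, 1.36 and 0.175%.

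The higher Tnfrsf13c in treated libraries was seen with IgG cells alone, at 44.0, 98.2, 92.9 and 76.3 CPM, and each treated library lay above untreated, by log2 ratios of 1.16 (0.30 to 2.06), 1.08 (0.37 to 1.87) and 0.79 (0.07 to 1.59) in the order given. Within cluster 17 the ratios were smaller, 0.91 (0.10 to 1.77), 0.85 (0.16 to 1.62) and 0.60 (-0.09 to 1.37). No UMI was found in the 58 untreated cells of cluster 23, where the anti-LTβR and combination libraries held 24.98 and 28.4 CPM, so the 2-fold calls depended on which plasma-like cells were counted. Summed macrophage markers in plasma-like cells were 1827, 1597, 602 and 1664 CPM, with all 8 detected in each library. Their part in the Tnfrsf13c levels was not tested.

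In B-like cells Tnfrsf13c was at 79.0 CPM with anti-LTβR (57.4 to 106) and 98.6 CPM with the combination (71.7 to 132), and the log2 ratio between them was 0.32 (-0.32 to 0.96). These levels overlap those of plasma-like cells of the same library. A Tnfrsf13c UMI was found in 23.8 and 15.6% of these B-like cells, at median depths of 3542 and 1807 UMIs, and in 0.501 and 0.347% of NK-like cells at 2903.5 and 1449 UMIs. cDC1-like cells held 8.20, 3.26, 8.91 and 9.97 CPM, from 2 to 11 UMIs, and pDC-like cells 10.6, 10.45 and 1.94 CPM in the 3 libraries with at least 50 such cells, from 4, 4 and 1 UMIs. The untreated pDC-like interval (2.89 to 27.1) overlapped that of plasma-like cells (22.4 to 55.4).

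Over all leukocytes Tnfrsf17 was at 0.672, 0.529, 3.50 and 3.43 CPM and Tnfrsf13c at 1.60, 0.982, 4.54 and 5.92 CPM. Both were past 2-fold higher with anti-LTβR and with the combination against untreated, 2 of the 5 members, where 2.1 and 2.41% of all genes were. They were so also for the combination against ADU-S100, where 6.18% of genes were. The share of plasma-like cells among leukocytes was 1.44, 0.499, 3.05 and 5.74%. With the shares of the classes held at untreated, the log2 ratios of Tnfrsf17 would be 0.36, 1.08 and 0.47 in place of -0.34, 2.38 and 2.35, and those of Tnfrsf13c 0.05, 0.29 and 0.33 in place of -0.70, 1.51 and 1.89. With the levels held at untreated and only the shares taken, they would be -0.71, 1.39 and 2.05 for Tnfrsf17 and -0.97, 0.50 and 0.88 for Tnfrsf13c.

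**Figure D5:**
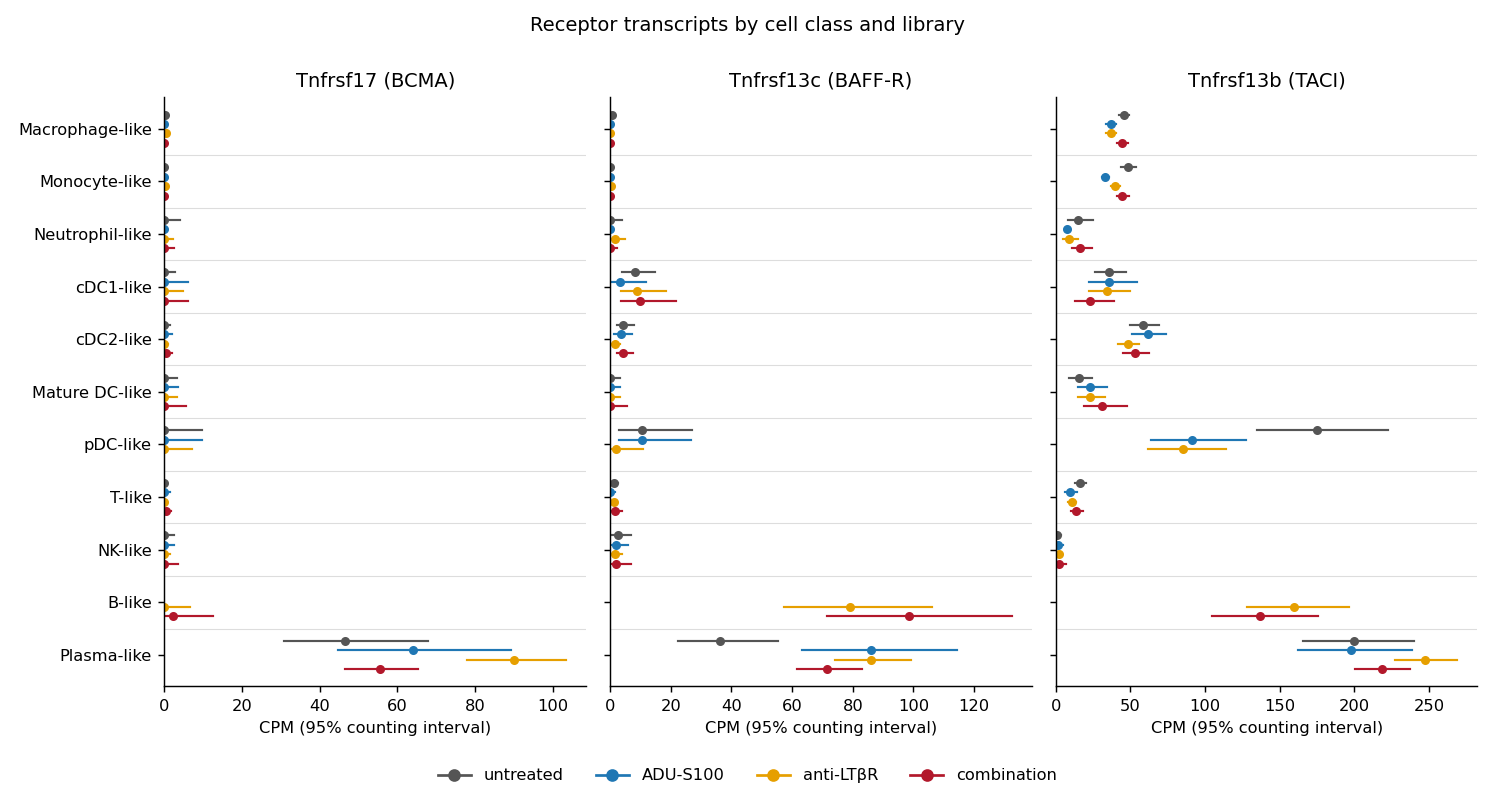
Level of Tnfrsf17, Tnfrsf13c and Tnfrsf13b in CPM on the x axis for each cell class on the y axis. Points are the 4 libraries, lines exact Poisson 95% intervals, and classes with fewer than 50 cells in a library are left out. Tnfrsf17 is at 46.6 to 90.0 CPM in plasma-like cells and at most 2.24 CPM in the other classes shown, Tnfrsf13c is in plasma-like and B-like cells, and Tnfrsf13b also reaches pDC-like and other myeloid classes.

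Tnfrsf13b, the receptor for both ligands, was at its highest in plasma-like cells, with 200, 198, 247 and 219 CPM. It was 160 CPM in B-like cells with anti-LTβR and 137 CPM with the combination, below the plasma-like level of the same library with no overlap. Plasmacytoid dendritic cells (pDC-like) followed, with 175, 91.4 and 85.2 CPM in the 3 libraries with at least 50 such cells. Their untreated interval (135 to 222) overlapped that of plasma-like cells (165 to 240) and lay above the other 2 of pDC-like cells. The log2 ratio to untreated was -0.93 with ADU-S100 (-1.57 to -0.32) and -1.04 with anti-LTβR (-1.62 to -0.47). The latter was past 2-fold lower, as were 3.29% of genes tested in that class, and rests on 44 against 66 UMIs. The summed pDC markers of these cells were 7014, 6884 and 4058 CPM and the summed macrophage markers 1125, 1236 and 1728 CPM. The summed neutrophil markers were 34.4, 2184 and 943 CPM. The part of all these markers in the Tnfrsf13b levels was not tested.

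Unlike the other receptors, Tnfrsf13b was also a myeloid transcript. It was at 45.5, 37.2, 37.0 and 44.6 CPM in macrophage-like cells, 48.8, 33.2, 39.8 and 44.7 CPM in monocyte-like cells and 58.8, 61.7, 48.7 and 53.3 CPM in cDC2-like cells. NK-like cells, the lowest of the ranked classes, held 0.688 to 1.95 CPM, and T-like cells 9.32 to 16.3 CPM. Macrophage-like and monocyte-like cells supplied 42.2, 26.5, 22.0 and 27.8% and 22.8, 36.3, 29.6 and 23.3% of its UMIs, and plasma-like cells 6.95, 5.94, 23.0 and 27.1%.

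Macrophage-like cells held 43.3, 37.5, 43.7 and 33.3 CPM of the 8 B markers summed, and 140, 156, 174 and 182 CPM of the 8 plasma markers. In macrophage-like cells without a UMI of any B or plasma marker (569, 421, 735 and 1181 cells) Tnfrsf13b was at 48.0, 42.6, 40.9 and 44.1 CPM, beside 45.5, 37.2, 37.0 and 44.6 CPM in the whole class. In the same cells Tnfrsf13c had no UMI and Tnfrsf17 was found in 0, 0, 5 and 0 cells.

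In macrophage-like cells as a whole Tnfrsf13b was lower with either agonist alone and not with both. In the smaller set without a B or plasma marker UMI, the levels were 48.0, 42.6, 40.9 and 44.1 CPM. There the intervals of all libraries overlapped. The log2 ratio to untreated was -0.29 with ADU-S100 (-0.46 to -0.12), -0.30 with anti-LTβR (-0.47 to -0.13) and -0.03 with the combination (-0.19 to 0.13). With both agents Tnfrsf13b was higher than with ADU-S100 by 0.26 (0.08 to 0.44) and higher than anti-LTβR by 0.27 (0.10 to 0.45). In monocyte-like cells Tnfrsf13b was below untreated by a log2 ratio of -0.56 with ADU-S100 (-0.74 to -0.37) and of -0.29 with anti-LTβR (-0.47 to -0.11), with -0.13 for both together, while the median gene of that class moved by -0.19 with ADU-S100. In the 2 monocyte-like clusters, of 607, 1748, 1955 and 1530 cells (cluster 0) and 580, 670, 1602 and 1925 cells (cluster 3), the ratio of ADU-S100 was -0.42 (-0.66 to -0.17) and -0.63 (-0.95 to -0.31), and that of anti-LTβR was -0.55 (-0.81 to -0.28) and -0.035 (-0.29 to 0.22), so the difference with anti-LTβR was seen in cluster 0 and was not detectable in cluster 3. Summed macrophage markers in monocyte-like cells were 5377, 5255, 3529 and 4195 CPM, beside 5512, 4772, 5162 and 4930 CPM of the 7 monocyte markers, and their part in the Tnfrsf13b levels was not tested.

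In neutrophil-like cells Tnfrsf13b was at 7.46, 9.09 and 16.5 CPM in the treated libraries, while the 14 UMIs of the untreated library gave an interval of 8.20 to 25.2 CPM. The ratio of ADU-S100 to untreated was -1.01 (-1.83 to -0.08), past 2-fold as were 9.68% of genes tested, while the median gene of the class moved by -0.31. The lower level was seen in 1 of the 2 neutrophil-like clusters. Cluster 2 (191, 3483, 523 and 597 cells) held 3.15, 6.83, 8.38 and 13.3 CPM, with a single UMI in untreated and a ratio of ADU-S100 to it of 1.12 (-1.42 to 6.45). Cluster 4 (303, 1805, 449 and 693 cells) held 21.1, 8.52, 9.75 and 19.2 CPM, with a ratio of -1.31 (-2.25 to -0.28). Over both clusters the ratio of the combination to ADU-S100 was 1.15 (0.45 to 1.80), past 2-fold as were 5.28% of genes. Summed macrophage markers in neutrophil-like cells were 537, 317, 398 and 560 CPM, also lowest with ADU-S100, and their part in the Tnfrsf13b levels was not tested.

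In plasma-like cells Tnfrsf13b differed little, with a log2 ratio of -0.02 for ADU-S100 over untreated (-0.41 to 0.37), 0.31 for anti-LTβR (0.01 to 0.61) and 0.13 for both together (-0.16 to 0.43). By antibody class it was 297 CPM in IgM cells (266 to 330), 203 CPM in IgG cells (189 to 217) and 271 CPM in IgA cells (227 to 322). The ratio of IgM to IgG cells was 0.55 (0.36 to 0.74), far smaller than that of Tnfrsf17. It was 0.02, 0.65, 0.32 and 0.78 by library, and the interval excluded 0 with the combination alone (0.51 to 1.04).

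Plasma-like cells often held more than 1 receptor. Of 1395 such cells, 201 had a Tnfrsf17 UMI, 301 a Tnfrsf13c UMI and 611 a Tnfrsf13b UMI, and 752 (53.9%) had at least 1 of them. Tnfrsf17 and Tnfrsf13b were found together in 141 cells, Tnfrsf13c and Tnfrsf13b in 200, and Tnfrsf17 and Tnfrsf13c in 68. Of 370 B-like cells, 1 had Tnfrsf17, 68 had Tnfrsf13c and 105 had Tnfrsf13b.

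Other genes of the pathway were read from a list of 30, made up of relatives and processing enzymes of the ligands, adaptors, kinases of NF-κB signaling and survival targets. In macrophage-like cells 29 had at least 50 UMIs. Nfkbia, which encodes an inhibitor of NF-κB, was past 2-fold higher with ADU-S100 (964 against 470 CPM, log2 ratio 1.04, 1.00 to 1.08). Traf1, an adaptor of TNF receptors, was past it with the combination (54.5 against 26.2 CPM, 1.06, 0.88 to 1.24), and was at 0.97 with ADU-S100 and 0.66 with anti-LTβR. Against untreated, 1, 0 and 1 of the 29 were thus past 2-fold higher, where 0.858, 1.43 and 1.47% of all genes were. No gene of the list was 2-fold lower in macrophage-like cells in any of the 5 comparisons, where 0.334 to 1.22% of all genes were. The list's median log2 ratio to untreated was 0.17, 0.15 and 0.29, beside -0.09, 0.03 and -0.07 over all genes. Nfkb1, a subunit of NF-κB, was at 0.43 with anti-LTβR and 0.66 with the combination, and Tnfaip3, a brake on NF-κB, at 0.83 with ADU-S100, 0.35 with anti-LTβR and 0.62 with the combination.

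In macrophage-like cells Sdc1, a surface proteoglycan that binds APRIL, was at 4.65, 2.47, 7.08 and 4.97 CPM. Its ratio to untreated was -0.91 with ADU-S100 (-1.56 to -0.29) and 0.61 with anti-LTβR (0.15 to 1.06), and the combination was past 2-fold above ADU-S100 (1.01, 0.37 to 1.67), as were 1.97% of all genes. Sdc1 is also a plasma marker, at 174, 134, 202 and 177 CPM in plasma-like cells, and the part of RNA of other cells in its macrophage level was not tested. Traf5, another adaptor, was higher with the combination than with ADU-S100 by 0.83, and Nfkbia was lower by -0.58. Against anti-LTβR, the combination differed most in Sdc1 (-0.51), Pim2 (0.45, -0.27 to 1.18) and Map3k14, the kinase of the noncanonical NF-κB pathway (0.40).

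In plasma-like cells 19, 24 and 26 of the 30 were measured against untreated, 2, 0 and 0 were past 2-fold higher and 2, 1 and 1 lower. Over all genes tested the shares were 2.65, 2.31 and 2.92% higher and 5.1, 2.1 and 1.23% lower. Furin, a protease that cleaves both ligands, was higher with ADU-S100 (1.56, 0.76 to 2.42), as was Nfkbia (1.15, 0.89 to 1.41). Summed neutrophil markers in plasma-like cells were 131, 788, 91.8 and 313 CPM, also highest with ADU-S100. Their part in these ratios was not tested. Furin was at 0.97 with the combination (0.26 to 1.77). Pim2, a survival kinase, was lower with ADU-S100 (-1.61, -2.68 to -0.65) and at -0.77 with the combination, and Chuk, a kinase of NF-κB signaling, was lower with ADU-S100 (-1.20). With anti-LTβR the 3 furthest were Bcl2a1b (-1.43, -2.15 to -0.69), Traf5 (-0.93) and Bcl2l1 (-0.84), the first and last of them inhibitors of cell death. Bcl2a1b was at 50.04, 51.3, 18.5 and 40.0 CPM in plasma-like cells and at 391 to 471 CPM in macrophage-like cells. It was lowest in the library where the summed macrophage markers of plasma-like cells were also lowest (602 CPM with anti-LTβR, against 1597 to 1827 CPM in the others), and their part in it was not tested. Traf5 was past 2-fold lower with the combination (-1.01, -1.65 to -0.35). The list's medians were -0.11, -0.05 and 0.04, beside -0.12, -0.03 and 0.01 over all genes.

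Between treated libraries, plasma-like cells of the combination had 2 of 26 higher and 2 of 26 lower than ADU-S100, where 8.04 and 1.36% of all genes were, led by Traf2 (1.38, -0.07 to 3.31), Tnfaip3 (-1.17) and Chuk (1.09), with Nfkbia the other (-1.03). Summed neutrophil markers of plasma-like cells were 788 CPM with ADU-S100 and 313 CPM with the combination, and their part was not tested. Plasma-like cells of the combination had 2 of 27 higher than anti-LTβR, where 1.67% of all genes were. Bcl2a1b (1.11, 0.57 to 1.67, beside the macrophage markers given above), Traf2 (1.00) and Map3k14 (0.57, -0.08 to 1.24) led. In the same comparison 0 were lower, where 0.175% of all genes were. In B-like cells 0 of 21 were past 2-fold between the combination and anti-LTβR, where 0.864% of genes were higher and 1.51% lower. The furthest were Traf1 (-0.90), Adam10 (-0.65) and Mcl1 (-0.55).

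Genes with the pattern nearest to each member were found by the Pearson correlation of log2(CPM + 1) over 41 sums of cells, from 11 classes in up to 4 libraries. The sums of a class share its cell type and those of a library its depth, so the coefficients are descriptions. Tnfsf13b was nearest to Cx3cr1 (r = 0.891), the fractalkine receptor of resident macrophages, and then Cpd, Hpgds, Trf and Ptgs1. Tnfsf13 was nearest to Ctsc (r = 0.915), a lysosomal protease, and the genes near it included Ms4a6d, Siglec1 and Msr1. The genes near Tnfrsf17 included Reln, Prlr, Cacna1h and Fkbp11. Tnfrsf13c was nearest to Prr5 (r = 0.886), then Ero1b, Dennd5b, Hdac10 and Syvn1, and Tnfrsf13b to Myo5a (r = 0.902), then Evi5, Bcar3, Pld4 and Serp1. The 5 lists of nearest genes had no gene in common.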

How the data were processed

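The 4 10x Genomics 5′ single-cell RNA libraries of sorted CD45+ tumor cells were read, 1 per group. The authors deposited filtered matrices of raw UMI counts per gene and cell, with no normalization. The file headers name Cell Ranger 8.0.1, the submitters' processing notes 7.1.0 with mm10. Cells with 300 to 5000 genes and at most 6% mitochondrial UMIs were kept, and 305, 949, 857 and 1066 likely doublets (untreated, ADU-S100, anti-LTβR, combination) were removed by Scrublet score, since its automatic threshold marked under 0.5% of each library. Cells were clustered with Scanpy 1.11.5 (2000 variable genes without the 5 members and immunoglobulin genes, 30 components, 20 neighbors, Leiden resolution 1) and named with "-like" from marker lists, each needing at least 3 markers. Counts were summed per class and library and divided by non-immunoglobulin UMIs. Intervals are exact (Poisson, Clopper-Pearson, or binomial for ratios) at 95%. Genes with at least 50 UMIs over both libraries were counted as past a 2-fold ratio. No test compared groups.

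The 5 members were named in every comparison, with the 3 pathway genes of the largest absolute ratio and the 5 genes nearest to each member, of which some are not reported here. The members, lists and rules were chosen with earlier results of these data known. Nfkbia in plasma-like cells and clusters 0, 2, 3, 4, 6, 8, 10, 11, 15, 17, 22 and 23 were named after their values were seen. The ratio and its interval were tested on simulated Poisson sums. These follow the model that the interval assumes, so clumping of UMIs in single cells was not covered. Alternatives covered the total, doublets, cell limits, thinning to 1000 UMIs (levels and ratios computed without random draws), the top cell, per-cell classes and cluster resolution. The thinned shares of cells with a UMI came from a single random draw per cell. The largest cluster alone and all alternatives for antibody classes were chosen after seeing the data.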

Additional observations from a re-analysis of the deposited data

Results flagged for a closer look

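Tnfrsf13b, the receptor for both ligands, had ratios of opposite sign in different classes under the same comparison, with intervals that excluded 0 on both sides. With anti-LTβR against untreated the log2 ratio was 0.31 in plasma-like cells, and -0.30 in macrophage-like, -0.29 in monocyte-like, -0.59 in T-like and -1.04 in pDC-like cells. With the combination against anti-LTβR it was -0.18 in plasma-like and 0.27 in macrophage-like cells. Summed macrophage markers in T-like cells were 492 CPM in untreated and 315 CPM with anti-LTβR, and their part in the T-like ratio was not tested. The differences between classes were not tested, since each group was 1 library, and the plasma-like values lie close to 0 at the near end of their intervals (0.01 and -0.01).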

How the results depend on the processing

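Of 770 values under alternatives for 173 results, 688 stayed within the counting interval of the reported value and the others left it. The sign changed in 43 values of 28 results, of which 1 had a reported interval that excluded 0. No paired analysis was possible because each group was 1 library. Each cause below was not tested. Depth per cell differed between the libraries, and thinning leaves out cells under 1000 UMIs. The untreated and ADU-S100 libraries held few plasma-like and B-like cells, which limits every receptor ratio that uses them.

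With cells assigned one by one, Tnfsf13b in cDC2-like cells with ADU-S100 against untreated turned from -1.65 (7 against 28 UMIs) to 1.49 (8 against 4 UMIs), its macrophage level was 66.3, 53.0, 54.0 and 49.8 CPM with ratios of -0.32 for ADU-S100 against untreated and -0.092 for the combination against ADU-S100, and untreated Tnfsf13 was 40.9 CPM. In the largest macrophage-like cluster alone, an alternative chosen after seeing the data, Tnfsf13b was at -0.032 with anti-LTβR against untreated and -0.38 with the combination against anti-LTβR. With up to 10% mitochondrial UMIs and no upper gene limit, Tnfsf13 over all leukocytes was at 0.050 with anti-LTβR against untreated.

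Thinned to 1000 UMIs, Tnfsf13b in macrophage-like cells was at 69.5 CPM with ADU-S100 and 55.8 CPM with anti-LTβR, with log2 ratios of -0.35 for anti-LTβR against untreated and -0.032 for the combination against anti-LTβR. In plasma-like cells, thinned Tnfrsf17 was at 24.8 CPM with ADU-S100, 69.5 CPM with anti-LTβR and 43.2 CPM with the combination, with ratios of -0.46 for ADU-S100 against untreated and 0.80 for the combination against ADU-S100. Thinned Tnfrsf13c was at 16.5, 44.8, 66.5 and 58.5 CPM, with 2.01 for anti-LTβR and 1.83 for the combination against untreated and 0.38 for the combination against ADU-S100, and Tnfrsf13b was at 153 CPM with ADU-S100, with 0.48 for the combination against it. Over all leukocytes, thinned ratios of ADU-S100 to untreated were -0.097 for Tnfsf13, -2.16 for Tnfrsf17, -1.48 for Tnfrsf13c and -0.71 for Tnfrsf13b. Those of anti-LTβR to untreated were -0.71 for Tnfsf13b and 0.33 for Tnfsf13, and that of the combination to untreated was 0.40 for Tnfsf13. The combination over ADU-S100 was at 0.50 for Tnfsf13, 4.39 for Tnfrsf17, 3.72 for Tnfrsf13c and 0.99 for Tnfrsf13b, and over anti-LTβR at 0.74 for Tnfrsf13c.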
